A study of Mus musculus with 12 samples.

Results

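The dual specificity MAP kinase phosphatases are 10 genes, Dusp1, Dusp2, Dusp4, Dusp5, Dusp6, Dusp7, Dusp8, Dusp9, Dusp10 and Dusp16, that were followed here through both steps of a supernatant transfer between 2 mouse cell lines. They were chosen by name as a protein family, with earlier results of these data known, from 17335 genes counted in either line. All 10 were listed for the stellate line PSC4 and 9 for the tumour line KPC4, where Dusp2 was not analysed here. They were sorted into the 3 classes in which the family is usually described: 4 nuclear, inducible members (Dusp1, Dusp2, Dusp4, Dusp5), 3 cytoplasmic members selective for ERK (Dusp6, Dusp7, Dusp9) and 3 members selective for JNK and p38 (Dusp8, Dusp10, Dusp16).

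PSC4 is a line of mouse pancreatic stellate cells, the stromal cells that lay down matrix in pancreatic tumours, and KPC4 is a line of mouse pancreatic cancer cells. Gemcitabine, a nucleoside analogue used as chemotherapy, was given at 10 µM, or vehicle in its place, to KPC4 cells for 6 h. The cells were washed and conditioned starvation medium for 14 h, which gave Gem-SU and Control-SU, and PSC4 cells were kept in either for 24 h before their RNA was sequenced. For the other arm, PSC4 cells were exposed to Gem-SU or Control-SU for 6 h, washed, and conditioned fresh starvation medium for 18 h, and KPC4 cells that had themselves received no drug were kept for 24 h in the resulting Gem-PSC-SU or Control-PSC-SU. Each of the 4 groups had 3 biological replicates, so there were 12 libraries. Every group thus consists of starved cells in conditioned medium, each cell type was represented by a single line, and no group in unconditioned medium is part of the comparisons. Whether residual drug was carried over with Gem-SU was not tested.

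MAP kinases (ERK, JNK and p38) are switched on when a threonine and a tyrosine of their activation loop are phosphorylated. Dual specificity MAP kinase phosphatases remove both phosphates, each with its own preference among the kinases. Several of the genes are themselves transcribed in response to MAP kinase signalling and so act as feedback inhibitors. Dusp6 is a widely used transcript readout of ERK activity in Ras-driven tumour cells, and Dusp1 is an immediate early gene of growth factor and stress responses.

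The 6 PSC4 libraries held 29559414 to 38138356 counts each, and the 6 KPC4 libraries 26354328 to 34744150. The labels were checked with marker lists. The 10 stellate and fibroblast markers summed to 8099 to 8773 CPM (counts relative to the scaled library total) in PSC4 with Control-SU, and the epithelial markers, of which 6 of 10 had a row, to 3.74 to 6.57 CPM there against 5901 to 7580 CPM over all KPC4 libraries. With Gem-SU the stellate markers summed to 2384 to 3558 CPM, with 8 of 10 lower and 0 higher, and the epithelial markers to 11.7 to 15.2 CPM, with 2 of 4 tested higher. In KPC4, the 6 stellate markers with a row summed to 2464 to 2808 CPM with Control-PSC-SU and to 1828 to 2271 CPM with Gem-PSC-SU, of which Vim, an intermediate filament gene not limited to stellate cells, made up means of 2613 and 2082 CPM. Col1a1 was at 5.93 CPM with Gem-PSC-SU, and Col1a2, Pdgfra and Acta2 had means below 1 CPM. The immune and endothelial lists each summed to at most 5.52 CPM in any library, the endothelial list in PSC4 to 1.58 to 2.86 CPM with Control-SU and 3.43 to 5.52 CPM with Gem-SU, with 1 of 3 tested higher. The part of these marker shifts in the phosphatase results was not tested.

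The promoters are shown first because the members differ in whether they hold the letters of the cAMP response element (CRE), a motif found in signal-responsive promoters. RefSeq sequence of build GRCm38.p6 was matched for 8 of the 10 genes, without Dusp4 and Dusp9, and the 250 bases before the annotated start were searched on both strands for the CRE core TGACG and the full palindrome TGACGTCA, which contains the core on each strand. In the sequences below, written 5′ to 3′ on the strand of the gene, capitals mark every match to the core on either strand. Dusp1, Dusp8, Dusp5 and Dusp16 are the 4 members with a match, and Dusp6 is shown as a member without one.
Dusp1 (chr17:26508473-26508722, minus strand): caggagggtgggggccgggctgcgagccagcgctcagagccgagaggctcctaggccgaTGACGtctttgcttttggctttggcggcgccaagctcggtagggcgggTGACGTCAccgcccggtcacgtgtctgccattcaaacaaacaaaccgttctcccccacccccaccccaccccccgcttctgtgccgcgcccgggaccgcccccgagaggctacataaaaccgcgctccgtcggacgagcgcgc
Dusp8 (chr7:142095285-142095534, minus strand): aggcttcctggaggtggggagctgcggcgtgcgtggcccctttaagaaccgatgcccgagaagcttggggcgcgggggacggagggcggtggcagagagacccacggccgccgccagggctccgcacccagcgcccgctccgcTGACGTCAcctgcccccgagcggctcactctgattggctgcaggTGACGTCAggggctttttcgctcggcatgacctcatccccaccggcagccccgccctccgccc
Dusp5 (chr19:53528895-53529144, plus strand): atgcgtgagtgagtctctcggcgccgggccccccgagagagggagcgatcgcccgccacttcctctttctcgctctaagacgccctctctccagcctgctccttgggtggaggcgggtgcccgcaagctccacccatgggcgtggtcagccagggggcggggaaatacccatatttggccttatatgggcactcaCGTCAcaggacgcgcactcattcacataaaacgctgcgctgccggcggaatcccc
Dusp16 (chr6:134792629-134792878, minus strand): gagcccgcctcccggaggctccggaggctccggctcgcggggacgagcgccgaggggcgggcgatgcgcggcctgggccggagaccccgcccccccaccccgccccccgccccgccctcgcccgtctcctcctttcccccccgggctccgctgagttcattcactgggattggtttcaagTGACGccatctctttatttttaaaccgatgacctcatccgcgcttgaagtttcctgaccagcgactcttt
Dusp6 (chr10:99262981-99263230, plus strand): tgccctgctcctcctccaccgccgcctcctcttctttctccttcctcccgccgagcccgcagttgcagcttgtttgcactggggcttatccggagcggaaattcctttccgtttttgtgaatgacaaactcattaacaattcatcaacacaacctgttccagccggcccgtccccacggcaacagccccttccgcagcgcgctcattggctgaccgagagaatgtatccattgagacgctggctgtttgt

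The Dusp8 window held 2 full palindromes, ending 100 and 56 bases before the start, and the Dusp1 window held 1, ending 136 bases before the start, beside a further core match. Dusp5 and Dusp16 each held a single core match, 51 and 66 bases before the start, and Dusp5 also held 2 CArG boxes, the motif of serum response factor. Dusp2, Dusp6, Dusp7 and Dusp10 held no match to the core. Among 32851 promoter windows of the same length, 17.8% held the core, 1.55% the full palindrome and 1.47% a CArG box. A search for the AP-1 letters TGANTCA and for the p53 half-site by name found no match in the 8 windows, against 6.75% and 7.13% of all windows. These are matches of letters and not measured binding.

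The first comparison asked which members stellate cells express differently once their medium comes from tumour cells given gemcitabine in place of vehicle. In PSC4, 8 of the 10 genes rose with Gem-SU and none fell. All 4 nuclear members rose, as did Dusp6 and Dusp9 among the cytoplasmic members and Dusp8 and Dusp16 among those selective for JNK and p38. Dusp8 had the largest fold, 44.2, among the 9 members other than Dusp2, for which only a lower bound could be given, and Dusp7 and Dusp10 did not pass the test. "Rose" and "fell" stand throughout for genes whose edgeR quasi-likelihood p, adjusted over all genes by Benjamini-Hochberg, was below 0.05. Of 13347 genes tested, 46.3% passed it, 24.3% higher and 22.0% lower, and 13.5% passed it with an at least 2-fold increase. By position alone, the 3 Gem-SU libraries lay above the 3 controls for the same 8 members and for 27.8% of all genes. The median log2 fold change over the 10 members was 2.12, also with Dusp2 at its lower bound, beside −0.0032 over all genes tested. RNA came from whole cultures, so a larger share of expressing cells and more RNA per cell cannot be told apart. How the biological replicates were kept separate is not stated in the labels, so the p-values measure the spread between these samples.

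Among the nuclear members, Dusp1 (MKP-1), which acts on p38, JNK and ERK, stood at 26.3, 34.3 and 31.6 CPM with Control-SU and at 173, 134 and 129 CPM with Gem-SU. All 3 Gem-SU libraries lay above all 3 control libraries. The log2 fold change was 2.29 (SE 0.18, adjusted p = 6.552e-05), a 4.88-fold increase. Dusp5, a nuclear phosphatase specific for ERK, stood at 10.9, 6.88 and 7.71 CPM with Control-SU and at 35.3, 32.4 and 32.4 CPM with Gem-SU. Its groups did not overlap, and its log2 fold change was 2.02 (SE 0.21, adjusted p = 0.0002164). Dusp4 (MKP-2), a nuclear relative of Dusp1, went from 16.8, 12.3 and 18.9 CPM to 54.1, 42.9 and 43.4 CPM, again without overlap. Its increase was 3.02-fold (log2 1.59, SE 0.20, adjusted p = 0.0004901). Dusp2 (PAC-1), best known from activated immune cells, was close to the limit of counting. It had 2, 0 and 0 counts with Control-SU and 22, 15 and 30 counts with Gem-SU. Against a floor of 3 counts per control library it was at least 7.07-fold higher (adjusted p = 0.004666), from a Gem-SU mean of only 0.66 CPM.

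Among the cytoplasmic members, Dusp6 (MKP-3), the ERK phosphatase whose transcript follows ERK activity, stood at 6.60, 4.46 and 8.03 CPM with Control-SU and at 42.3, 52.2 and 56.4 CPM with Gem-SU. The lowest Gem-SU library was several-fold above the highest control. The increase was 8.16-fold (log2 3.03, SE 0.25, adjusted p = 7.966e-05), the largest of the class. Dusp9 (MKP-4) rose less, from 5.93, 6.54 and 6.82 CPM to 13.6, 14.9 and 12.2 CPM. Its groups did not overlap and its log2 fold change was 1.12 (SE 0.19, adjusted p = 0.001908). Dusp7 (MKP-X), the third ERK-selective enzyme, stood at 49.0, 35.6 and 38.8 CPM with Control-SU and at 44.5, 34.1 and 29.8 CPM with Gem-SU. Its groups overlapped, and the 95% interval of its log2 fold change ran from −0.59 to 0.31 around −0.14 (adjusted p = 0.5928).

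Among the members selective for JNK and p38, Dusp8 stood at 3.24, 1.79 and 3.08 CPM with Control-SU and at 95.6, 123 and 129 CPM with Gem-SU. The control libraries were uniformly low and the Gem-SU libraries uniformly high, and 52 of the 13347 genes tested had a larger log2 fold change than its 5.47 (SE 0.27, adjusted p = 1.928e-05). Dusp16 (MKP-7), a JNK-directed phosphatase, went from 49.6, 50.7 and 49.5 CPM to 166, 239 and 269.9 CPM. It rose 4.65-fold without overlap (log2 2.22, SE 0.19, adjusted p = 0.0001092). Dusp10 (MKP-5), which acts on p38 and JNK, stood at 12.7, 10.1 and 10.3 CPM with Control-SU and at 12.1, 7.25 and 7.33 CPM with Gem-SU. Its groups overlapped, with a log2 fold change of −0.26 (95% interval −0.85 to 0.32, adjusted p = 0.4233).

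**Figure D1:**
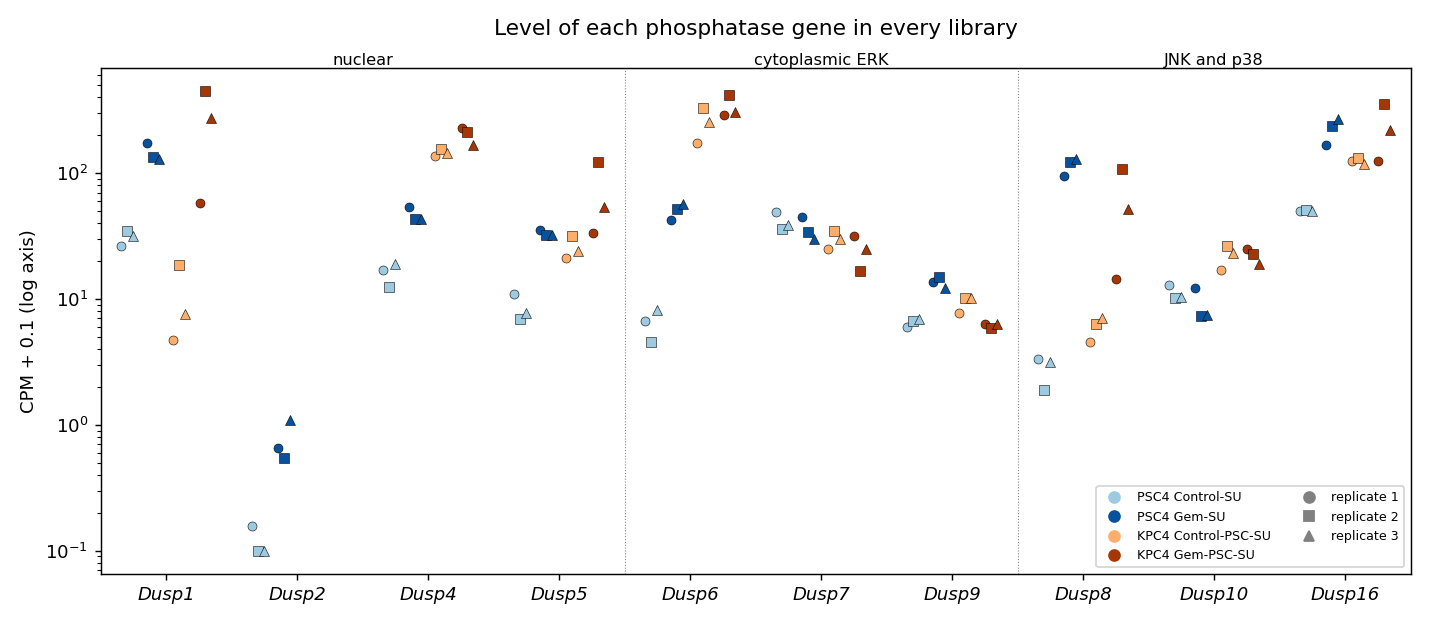
Level of each of the 10 genes in every library, as CPM plus 0.1 on a log axis; colours mark the 4 groups and symbols the replicate number, and the classes are separated by dotted lines. In PSC4 the dark blue points (Gem-SU) lie above all light blue points for 8 genes and overlap them for Dusp7 and Dusp10, and in KPC4 the dark orange points of Dusp1, Dusp5, Dusp8 and Dusp16 are spread widely.

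The second comparison asked which members differ in tumour cells kept in medium of stellate cells that had seen Gem-SU. In KPC4, 0 of 9 members passed the adjusted threshold in edgeR, where 0% of all 13236 genes passed (smallest adjusted p 0.08632). At an unadjusted p under 0.05 there were 6 of 9 members, against 17.0% of all genes, and DESeq2 called 3 members, against 5.95% of the 13811 genes it gave an adjusted p. Deviations of same-numbered KPC4 libraries from their group means correlated positively, so the fit with the replicate number as a block is given beside the other. That check used the same libraries as the test and does not establish a pairing. With the block, Dusp1, Dusp5 and Dusp8 rose and none fell, where 8.85% of all genes passed, 6.07% higher. By position, the Gem-PSC-SU libraries were all above the controls for 4 of 9 members (12.2% of all genes) and all below for 1 (10.4% of all genes). The median log2 fold change was 0.48 over the 9 members and −0.02 over all genes. The authors' deposited table gave an adjusted p under 0.05, all higher, to the same 3 genes, with log2 fold changes of 4.70 for Dusp1, 1.45 for Dusp5 and 3.52 for Dusp8. It rests on the same libraries and is not independent of the counts above, and its share of all genes called is not given here.

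Dusp1 stood at 4.66, 18.4 and 7.44 CPM with Control-PSC-SU and at 57.7, 453 and 275 CPM with Gem-PSC-SU. Every Gem-PSC-SU library was above every control, but the 3 differed several-fold among themselves. The log2 fold change was 4.70 (SE 0.80, adjusted p = 0.1123) without the block, and with it the increase was 22.7-fold (SE 0.32 on the log2 scale, adjusted p = 0.001098). Only 22 of the 13236 genes tested in KPC4 had a larger log2 fold change. Between same-numbered libraries Dusp1 was 12.3-, 24.6- and 36.9-fold higher. The call with the block was absent when both libraries of replicate 2 were left out.

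Dusp5 stood at 21.0, 31.5 and 24.0 CPM with Control-PSC-SU and at 33.3, 123 and 53.8 CPM with Gem-PSC-SU. Replicate 1 of Gem-PSC-SU was barely above the highest control and replicate 2 far above it. The log2 fold change was 1.47 (SE 0.44, adjusted p = 0.1738), and 1.27 (SE 0.26, adjusted p = 0.02957) with the block. Dusp4, the most abundant nuclear member of this line in control medium, stood at 136, 155 and 145 CPM with Control-PSC-SU and at 229, 213 and 169 CPM with Gem-PSC-SU. The groups did not overlap, and the log2 fold change of 0.48 (SE 0.17) did not pass either fit (adjusted p = 0.2239, and 0.07687 with the block).

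The 3 ERK-selective members did not pass in either fit. Dusp6 was already high, at 174, 329 and 253 CPM with Control-PSC-SU, and stood at 288, 419.7 and 304 CPM with Gem-PSC-SU. The groups overlapped, although each Gem-PSC-SU library was above the control of its number (log2 fold change 0.42, SE 0.26, adjusted p = 0.4312, and 0.07668 with the block). Dusp9 was the member whose Gem-PSC-SU libraries all lay below the controls, at 7.69, 10.0 and 10.2 CPM with Control-PSC-SU and at 6.23, 5.83 and 6.23 CPM with Gem-PSC-SU. Its log2 fold change was −0.61 (SE 0.23, adjusted p = 0.2439, and 0.1076 with the block). Dusp7 overlapped between the groups, at 25.0, 34.5 and 29.8 CPM and at 31.7, 16.7 and 24.9 CPM (log2 fold change −0.29, 95% interval −0.88 to 0.29).

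Dusp8 stood at 4.42, 6.22 and 6.97 CPM with Control-PSC-SU and at 14.4, 107 and 51.4 CPM with Gem-PSC-SU. All 3 Gem-PSC-SU libraries were above the controls, the lowest again being replicate 1. The log2 fold change was 3.31 (SE 0.64, adjusted p = 0.1123), and 2.92 (SE 0.50, adjusted p = 0.03347) with the block. Dusp16 stood at 125, 132 and 118 CPM with Control-PSC-SU and at 125, 355 and 218 CPM with Gem-PSC-SU, so that replicate 1 lay within the control range and the other 2 libraries above it. Its log2 fold change of 0.90 (SE 0.34) did not pass (adjusted p = 0.2348, and 0.1261 with the block). Dusp10 stood at 16.8, 26.2 and 22.9 CPM and at 24.8, 22.7 and 18.8 CPM, with a log2 fold change of 0.01 (95% interval −0.52 to 0.53).

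Within Gem-PSC-SU, replicate 1 was the lowest and replicate 2 the highest library for Dusp1, Dusp5, Dusp6, Dusp8 and Dusp16. Within Control-PSC-SU the same order held for Dusp1, Dusp4, Dusp5, Dusp6, Dusp7 and Dusp10. Without replicate 1 of Gem-PSC-SU, Dusp1, Dusp5, Dusp8 and Dusp16 passed edgeR's test without a block, as did 8.30% of all genes. Without replicate 2 of Control-PSC-SU, Dusp1 was the only member to pass, beside 1.29% of all genes, at a log2 fold change of 5.44. Without replicate 2 of Gem-PSC-SU no member passed, and the estimates were 4.02 for Dusp1, 0.75 for Dusp5, 2.47 for Dusp8 and 0.44 for Dusp16. In the block fit, leaving out both libraries of replicate 2 gave Dusp8 a log2 fold change of 2.31. Leaving out those of replicate 3 left Dusp1 as the only member called, beside 0.334% of all genes.

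**Figure D2:**
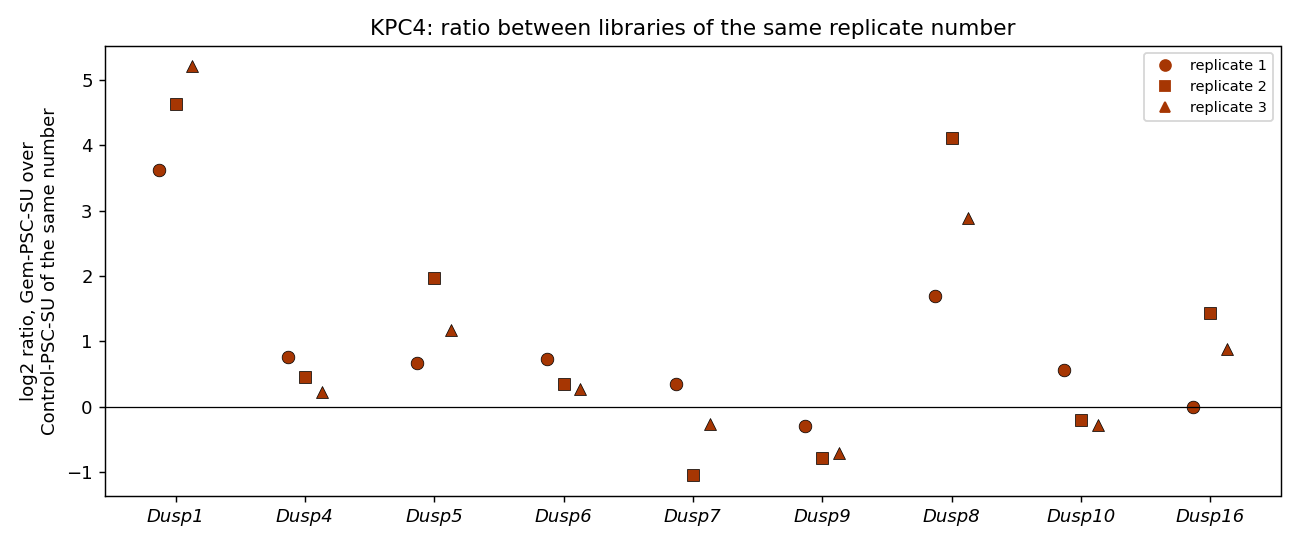
The log2 ratio of Gem-PSC-SU over Control-PSC-SU between KPC4 libraries of the same replicate number, 1 point per number and gene; the line marks no difference. The 3 ratios are all above 0 for Dusp1, Dusp4, Dusp5, Dusp6 and Dusp8 and all below 0 for Dusp9, while Dusp16 runs from −0.01 for replicate 1 to 1.43 for replicate 2. The share of all genes with ratios of the same sign was not computed, and Dusp4, Dusp6 and Dusp9 passed in neither fit.

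A test of the difference of the 2 responses, PSC4 minus KPC4 on the log2 scale, separated 3 of 9 members, each with the larger value in PSC4, where 9.85% of 13632 genes were separated, 4.75% with the larger value in PSC4. Dusp6 rose 8.16-fold in PSC4 while its KPC4 fold was 1.34, a difference of 2.56 (SE 0.37, adjusted p = 0.001564). Dusp9 rose in PSC4 and had a negative estimate in KPC4, a difference of 1.69 (SE 0.29, adjusted p = 0.003751). Dusp4 differed by 1.06 (SE 0.26, adjusted p = 0.02459), a call that was absent when PSC4 Gem-SU replicate 2, KPC4 Control-PSC-SU replicate 2 or 3, or KPC4 Gem-PSC-SU replicate 3 was left out. Dusp1 had the larger estimate in KPC4, and its difference of −2.45 (SE 0.82) did not pass (adjusted p = 0.07984). Neither did Dusp8 at 2.12 (SE 0.71, adjusted p = 0.07862) or Dusp16 at 1.28 (SE 0.41, adjusted p = 0.06864). With the replicate block, where 21.9% of genes passed, these 3 passed as well, with differences of −2.27 for Dusp1 (adjusted p = 0.002743), 2.51 for Dusp8 (adjusted p = 0.0273) and 1.37 for Dusp16 (adjusted p = 0.01715). That block paired libraries by number in both lines. Same-numbered PSC4 deviations correlated at 0.428, −0.0548 and 0.102, which gave no ground for pairing there, so these 3 further calls are uncertain. Dusp5, Dusp7 and Dusp10 differed by 0.51, 0.10 and −0.32, with 95% intervals of −0.61 to 1.63, −0.65 to 0.85 and −1.08 to 0.44. Line and transfer step change together in this design and cannot be told apart.

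**Figure D3:**
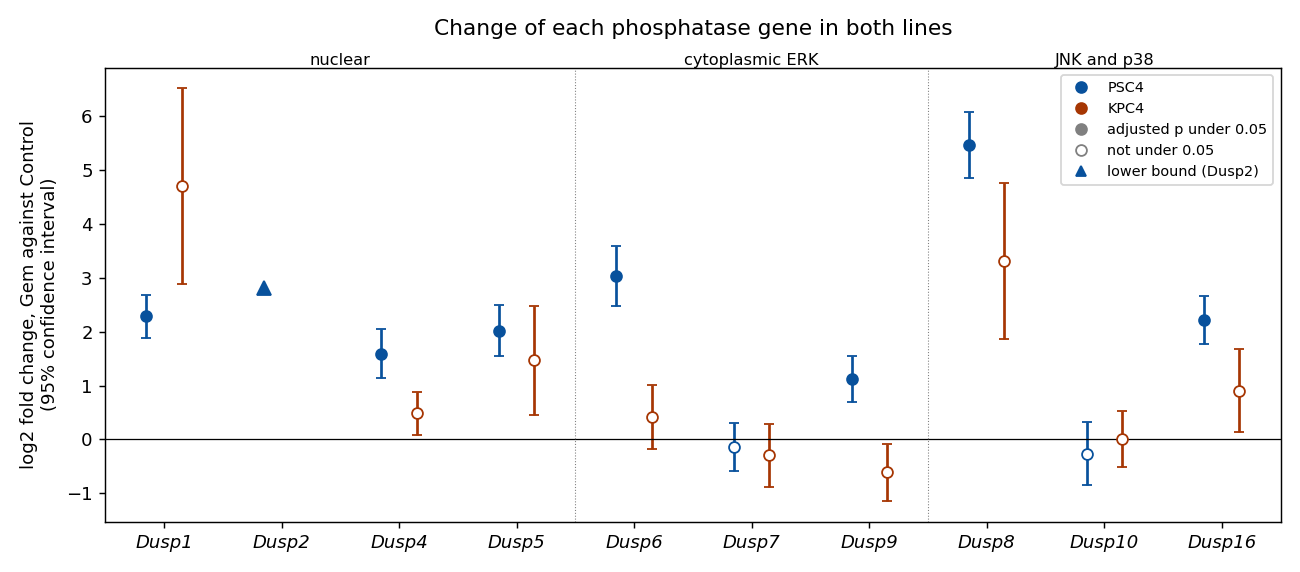
Log2 fold change of Gem against Control for each gene in PSC4 and KPC4, with 95% confidence intervals from edgeR's fit without a block; filled points have an adjusted p under 0.05, and the triangle is the lower bound for Dusp2. The intervals of the lines do not overlap for Dusp4, Dusp6, Dusp8, Dusp9 and Dusp16, higher in PSC4, or for Dusp1, higher in KPC4. The test of the difference itself, without a block, passed for Dusp4, Dusp6 and Dusp9 and not for Dusp1, Dusp8 and Dusp16. Dusp7 and Dusp10 lie near 0 in both lines.

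Beside the promoter sequences printed above, the 4 members with a CRE core, Dusp1, Dusp5, Dusp8 and Dusp16, had log2 fold changes of 2.02 to 5.47 in PSC4 and of 0.90 to 4.70 in KPC4. In PSC4 the members without a core included Dusp2, at least 7.07-fold higher, Dusp6 at 3.03 and Dusp10 at −0.26, so both kinds of promoter held genes that rose. In KPC4 the 3 members without a core, Dusp6, Dusp7 and Dusp10, lay between −0.29 and 0.42. No member passed there without the block, and Dusp16 (0.90) passed in neither fit. This is a description of 8 and 7 genes, with no test.

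In control medium the lines differed in 6 of 9 members, where 42.9% of genes did, 20.6% higher in KPC4 and 22.3% lower. Dusp6 was 39.6-fold higher in KPC4 (log2 5.31, SE 0.31, adjusted p = 1.551e-08), with a lowest KPC4 control library of 174 CPM against a highest PSC4 control library of 8.03 CPM. Dusp4 was 9.05-fold higher in KPC4 (log2 3.18, SE 0.20, adjusted p = 3.174e-08). The log2 difference was also positive for Dusp5 (1.59), Dusp16 (1.32) and Dusp10 (0.99; adjusted p = 0.00384, 0.002484 and 0.005731). Dusp1 alone was lower in KPC4, by −1.60 (SE 0.59, adjusted p = 0.04431), a call that was absent in 9 of 17 alternatives. Dusp9 (0.53, adjusted p = 0.05159), Dusp8 (1.12, adjusted p = 0.1022) and Dusp7 (−0.47, adjusted p = 0.1464) did not pass. Cell line, kind of conditioned medium and deposited table cannot be told apart here.

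Levels of different genes were compared as CPM per kilobase of exon. In PSC4 with Control-SU, Dusp7 (12.3 ± 2.08, SD, n = 3) and Dusp1 (9.29 ± 1.23) were the highest, an order that turned when the longest transcript was used as the length. They were followed by Dusp16, Dusp4, Dusp10, Dusp5, Dusp9, Dusp6 and Dusp8 (0.56 ± 0.16), with Dusp2 at 0.0097 ± 0.017. The ranges of Dusp16 and Dusp4, of Dusp10 and Dusp5, and of Dusp9 and Dusp6 overlapped. With Gem-SU the order was Dusp1 (43.9 ± 7.13), Dusp16, Dusp8 (23.8 ± 3.67), Dusp4, Dusp6, Dusp5, Dusp7, Dusp9, Dusp10 and Dusp2. Dusp7 thus went from the top to the seventh place at a level of 10.8 ± 2.26, and from Dusp16 down to Dusp7 the ranges of neighbours overlapped, while Dusp7 and Dusp9 stood apart.

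In KPC4 with Control-PSC-SU, Dusp6 (80.5 ± 24.7 CPM per kilobase) and Dusp4 (49.5 to 56.4) were the highest and overlapped with each other. Dusp16 (16.0 ± 0.89) came next, apart from its neighbours. Below it were Dusp5, Dusp7, Dusp10, Dusp9, Dusp1 (3.07 ± 2.19) and Dusp8 (1.21 ± 0.27), in which the ranges of neighbours overlapped except between Dusp10 and Dusp9. With Gem-PSC-SU, Dusp1 stood second at 79.1 ± 59.8, between Dusp6 (107.7 ± 23.0) and Dusp4 (74.2 ± 11.3). Its wide range overlapped with both, which did not overlap with each other. Dusp16, Dusp5, Dusp8, Dusp7 and Dusp10 followed, with overlap between neighbours, and Dusp9 (2.24 ± 0.085) was the lowest.

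Summed within classes on the same per-kilobase scale, all 3 classes were higher in every Gem-SU library than in every Control-SU library of PSC4. The nuclear class went from 18.6 ± 0.96 to 74.8 ± 10.0 (SD, n = 3), 4.02-fold. The JNK and p38 class went from 10.6 ± 0.55 to 55.6 ± 9.60, 5.25-fold, and the cytoplasmic ERK class from 16.6 ± 2.22 to 31.8 ± 0.49, 1.91-fold. Its composition changed along with its sum. Dusp6 made up 12.2% ± 2.90 of the cytoplasmic class with Control-SU and 50.5% ± 7.50 with Gem-SU, and the share of Dusp7 went from 73.4% ± 3.89 to 33.8% ± 7.05. In the JNK and p38 class, the share of Dusp8 went from 5.22% ± 1.40 to 42.9% ± 1.05 and that of Dusp10 from 34.2% ± 2.74 to 5.57% ± 2.83, while Dusp16 kept the largest share (60.6% ± 3.61 and 51.5% ± 3.62).

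In KPC4 the nuclear class went from 66.3 ± 7.77 to 181.6 ± 76.1 CPM per kilobase (2.74-fold) and the JNK and p38 class from 24.5 ± 2.18 to 49.0 ± 24.3 (2.00-fold). Their Gem-PSC-SU libraries lay above the controls, with the JNK and p38 sum of replicate 1 (27.1) just above the highest control (26.8). The cytoplasmic class, at 92.8 ± 26.5 and 117.2 ± 20.8 (1.26-fold), overlapped between the groups. Dusp6 made up 86.4% ± 1.92 of this class with Control-PSC-SU and 91.5% ± 3.19 with Gem-PSC-SU. Dusp4 made up 80.2% ± 4.11 of the nuclear class with Control-PSC-SU. With Gem-PSC-SU the share of Dusp1 was 15.2%, 51.8% and 49.9% in replicates 1, 2 and 3, against 2.37%, 7.42% and 3.46% in the controls. These sums carry no test.

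**Figure D4:**
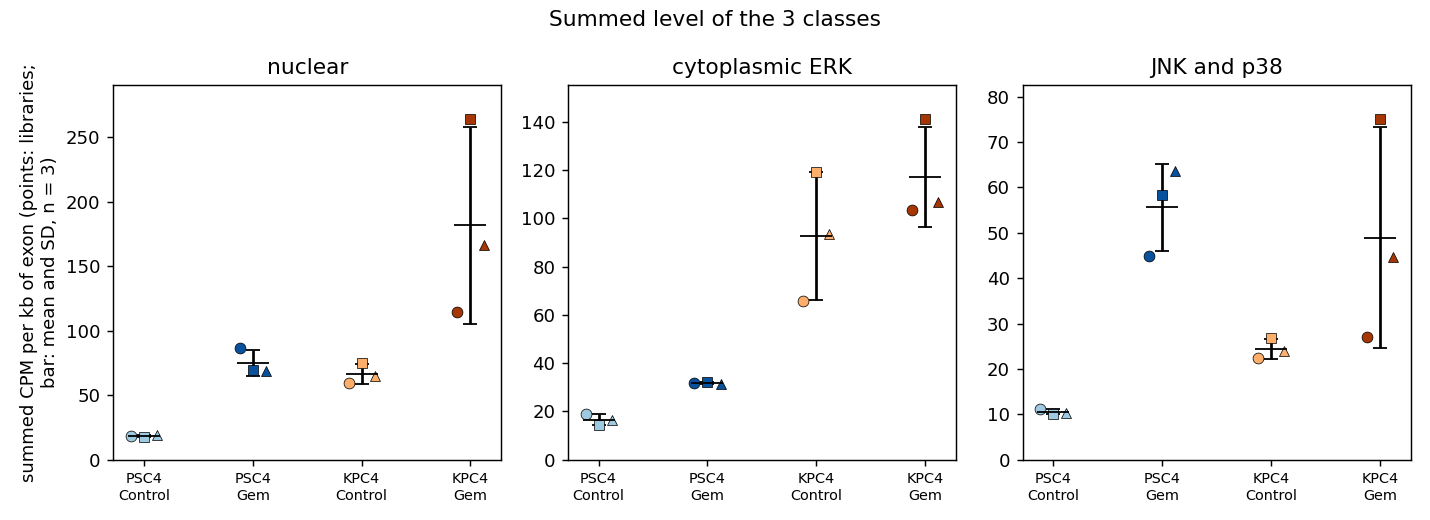
Summed CPM per kilobase of exon of each class in every library, with the mean and SD of 3 libraries; each panel has its own axis from 0. In PSC4 the Gem libraries stand clear of the controls in all 3 panels, while in KPC4 the Gem libraries are spread from 114.3 to 264.2 in the nuclear class and overlap the controls in the cytoplasmic class.

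Other genes around the MAP kinases moved in both directions in PSC4, where 24.3% of all genes rose and 22.0% fell. The 46.3% called over all genes is the background for each count below unless another share is given, and no list was tested against other genes. Of the atypical dual specificity phosphatases, relatives that lack the MAP kinase binding domain, 10 of 14 were tested, 2 rose and 1 fell. Dusp18 fell by 1.83 on the log2 scale (adjusted p = 0.0006918), from 36.1 ± 10.8 to 9.81 ± 1.14 CPM (SD, n = 3). Dusp15 had 0, 8 and 0 counts with Control-SU and 84, 76 and 65 with Gem-SU (adjusted p = 0.005108). Dusp3 rose by 0.78 (adjusted p = 0.01523), and its call was absent without Control-SU replicate 1 or 2 or without Gem-SU replicate 2 or 3. Of 5 other phosphatases of MAP kinases tested, 2 rose and 1 fell. Ppm1d (Wip1), a p38-directed phosphatase of the DNA damage response, rose 4.61-fold to 124.4 ± 22.2 CPM (adjusted p = 0.0001012). Ptpn7, a tyrosine phosphatase of ERK and p38, rose 3.77-fold (adjusted p = 0.001443), and Ptpn5 fell by 1.64 on the log2 scale (adjusted p = 0.0008596).

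Of 10 genes of the ERK cascade, 2 rose and 1 fell in PSC4. Mapk3, which encodes ERK1, fell by 1.83 (adjusted p = 0.0006554), from 115 ± 17.3 to 31.1 ± 10.9 CPM. Hras rose 2.14-fold (adjusted p = 0.006893) and Map2k1, which encodes the ERK kinase MEK1, by 0.58 on the log2 scale (adjusted p = 0.02999), a call that was absent without Control-SU replicate 2 or 3 or Gem-SU replicate 2. Without Gem-SU replicate 1, 6 genes of this list were called, where 49.9% of all genes were. Of 14 genes of the JNK and p38 cascade, 4 rose and 4 fell, a share called near that background. The largest were increases of Map2k4 (1.19, adjusted p = 0.0005127) and Map2k3 (1.09, adjusted p = 0.003426), kinases of JNK and p38, and of Mapk14 (0.76, adjusted p = 0.001628), which encodes p38 alpha. The count of 8 was 5 without Control-SU replicate 1 or replicate 3, where 37.9% and 34.7% of all genes were called. It was 4 without Gem-SU replicate 2, where 29.8% were.

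Of 6 Sprouty and Spred genes tested, which encode inhibitors upstream of ERK, 2 rose and 1 fell, again near the background. Spry4 rose 3.51-fold (adjusted p = 0.0005908) and Spry2 1.84-fold (adjusted p = 0.002352), while Spred1 fell by 0.55 on the log2 scale (adjusted p = 0.01396), a call absent without Gem-SU replicate 2. Of 9 transcripts known to respond to ERK signalling, 6 rose and 1 fell (Etv1, chosen here after its value was seen, by 1.40). Fosl1, an AP-1 subunit, rose 13.1-fold from 11.8 ± 2.57 to 149.1 ± 11.1 CPM (adjusted p = 1.928e-05). Epha2, an ephrin receptor, rose 8.84-fold (adjusted p = 3.363e-05), and Phlda1 4.90-fold (adjusted p = 5.981e-05). The median log2 fold change was 1.20 in this list, against −0.14 for the atypical phosphatases, 0.28 for the other phosphatases, 0.29 and −0.29 for the ERK and the JNK and p38 cascades, and −0.19 for the inhibitors.

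**Figure D5:**
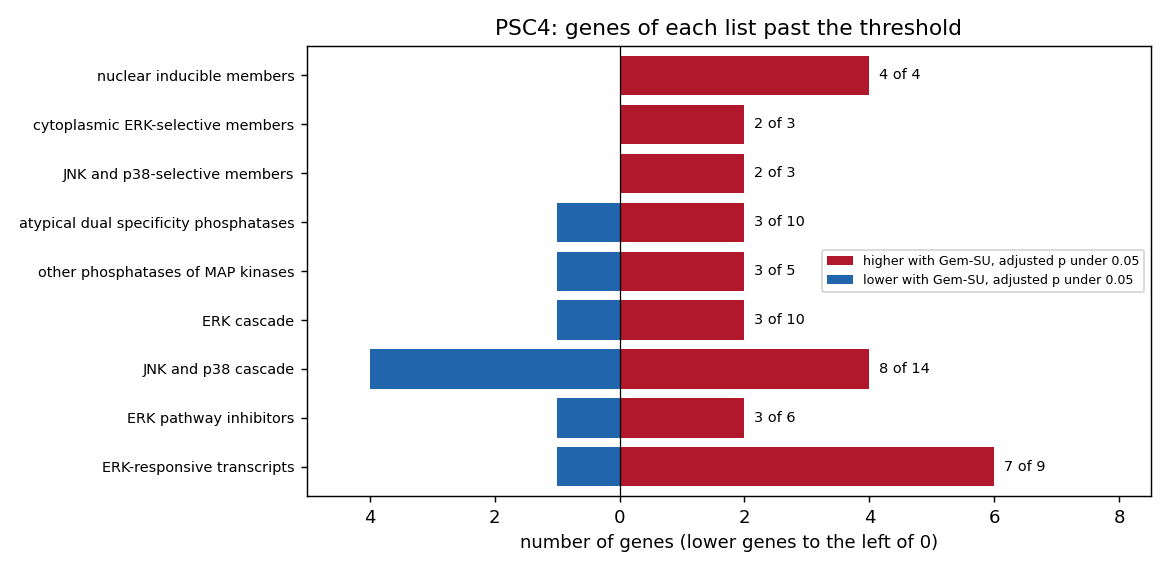
Number of genes past the adjusted threshold in PSC4 for the 3 classes of members and the 6 other lists, higher genes to the right of 0 and lower genes to the left; the text beside each bar gives called genes of those tested. All called members are to the right, and among the other lists the ERK-responsive transcripts have 6 genes to the right and 1 to the left.

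In KPC4, 0 genes of these 6 lists passed edgeR's test without a block. At an unadjusted p under 0.05, which 17.0% of all genes had, there were 5 of 9 ERK-responsive transcripts. There was 1 each among 6 other phosphatases, 10 genes of the ERK cascade and 13 of the JNK and p38 cascade, and 0 in the remaining lists. DESeq2 called 4 ERK-responsive transcripts and 0 genes of the other 5 lists, beside 5.95% of all genes. With the replicate block, where 8.85% of all genes passed, Fosl1 (2.33, adjusted p = 0.04132), Epha2 (1.47, adjusted p = 0.001416), Map2k3 (0.76, adjusted p = 0.03399) and Ppm1d (0.73, adjusted p = 0.04954) rose. Of 13 alternatives, the block included, Fosl1 and Epha2 were each called in 4, Map2k3 in 2 and Ppm1d in 1. Fosl1 stood at 17.3, 24.8 and 14.9 CPM with Control-PSC-SU and at 36.6, 189.7 and 113.6 CPM with Gem-PSC-SU, with replicate 1 lowest and replicate 2 highest, as for Dusp1.

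The genes whose log2 CPM ran most like that of 1 member of each class, once the mean of each line was subtracted, were picked from 10276 genes over 12 libraries. For Dusp1 they were Cdc25c (r = 0.99), Traip (r = 0.986) and Cdt1 (r = 0.984), and for Dusp6 Klrg2 (r = 0.988), Zdhhc13 (r = 0.985) and Prps1 (r = 0.982). Those of Dusp1 had higher estimates in KPC4 than in PSC4, as Dusp1 had (Traip 2.18 and 1.43), and those of Dusp6 the reverse (Klrg2 0.38 and 2.62). The choice by correlation over the same libraries favours such a shared order, so it is not a separate result. For Dusp10 they were Rbbp4 (r = 0.923), Ilkap (r = 0.908) and Tbcc (r = 0.887). These correlations are descriptions without a test, and the points share the contrast of groups and the libraries.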

How the data were processed

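Total RNA was sequenced on an Illumina NovaSeq X Plus, per the labels' protocols. The authors deposited 1 table of counts per gene and library for each line; the values are whole numbers and were treated as estimated counts, since Salmon is among the tools in the submitters' processing notes. These name Trim Galore 0.6.10, cutadapt 5.2, FastQC, R 4.5.1, DESeq2 and build GRCm39; roles and the counting rule are not given in the sources used here. The smallest row total was 11 in KPC4 and 0 in PSC4. The authors also deposited a log2 fold change and adjusted p-value per gene, used only where named. No column of per-sample values was left unused. Reads of overlapping or near-identical genes may be split by the counting, and strand is not stated.

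Symbols came from GENCODE M21 (99.7% of identifiers in each table), exon lengths from the same annotation, and promoters from RefSeq on GRCm38.p6, a build other than that of the counts.

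Each line was fitted with edgeR 4.0.16 in R 4.3.3: filterByExpr, TMM scaling, robust quasi-likelihood test, Benjamini-Hochberg adjustment at 0.05. All 10 members passed the filter in PSC4 and 9 of 9 in KPC4. The difference of responses and the control levels came from 1 fit of all 12 libraries over 13632 genes in both tables. Printed CPM use library totals times TMM factors over 12 libraries. The floor of 3 counts for Dusp2 covers counting error only. SEs come from the quasi-likelihood fit and SDs from the libraries of each group, so both include the spread between libraries.

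Members, lists and tests were chosen with earlier results of these data known. Named were all members; of each other list, per line, up to 3 called genes with the largest change (in KPC4 those called with the block); and the 3 genes most similar to Dusp1, Dusp6 and Dusp10 with a mean of at least 50 counts in each line.

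Samples share replicate numbers. Deviations from group means correlated between same-numbered libraries at 0.351, 0.436 and 0.211 in KPC4, all over 0.1. Replicate numbers were taken to pair the libraries of KPC4 from this check alone. In PSC4 the deviations did not all do so (0.428, −0.0548 and 0.102). Libraries of different numbers were not correlated, and the data were those of the tests, so the check cannot establish a pairing.

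The scripts were tested on simulated data. Alternatives were DESeq2 1.42.0, its size factors, no filter, at least 10 counts in every library, robust estimation off, the replicate block, 1 fit of 12 libraries, leaving out each library, plain totals and longest-transcript lengths. Leaving out both KPC4 libraries of a replicate number from the block fit was chosen after seeing the data.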

Additional observations from a re-analysis of the deposited data

Results flagged for a closer look

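The change with Gem medium differed between the lines for 3 of 9 members, against 9.85% of 13632 genes. This was a test of the difference itself, PSC4 minus KPC4 on the log2 scale. With the replicate block, where 21.9% of genes passed, Dusp1, Dusp8 and Dusp16 passed as well. That block also paired the PSC4 libraries by number, a pairing that the check of their deviations did not show. For Dusp6 the difference was 2.56 (95% interval 1.76 to 3.37, adjusted p = 0.001564), and its adjusted p ran from 4.431e-09 to 0.006835 over 18 alternatives. For Dusp9 the difference was 1.69 (95% interval 1.06 to 2.31, adjusted p = 0.003751, from 2.306e-07 to 0.01866 over the alternatives), with all 3 Gem libraries above the controls in PSC4 and all 3 below them in KPC4. For Dusp4 it was 1.06 (95% interval 0.49 to 1.63, adjusted p = 0.02459, from 0.002898 to 0.06721 over the alternatives). Dusp4 and Dusp6 had the higher control level in KPC4. What lies behind these differences was not tested.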

How the results depend on the processing

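In PSC4 the count of called members was 8 with DESeq2, with its size factors, without a filter, with robust estimation off and with the replicate block, which changed no PSC4 member call. It was 7 with at least 10 counts in every library and in the 12-library fit, where Dusp2 was not tested, and 8 to 8 with each library left out. In KPC4 the count of 0 became 3 with DESeq2, 3 with the replicate block and 3 in the 12-library fit, each time Dusp1, Dusp5 and Dusp8. It ran from 0 to 4 with single libraries left out. It was 4 without Gem-PSC-SU replicate 1 (8.30% of all genes) and 1 without Control-PSC-SU replicate 2 (1.29%). In the replicate block with a number left out it ran from 1 to 4. There it was 4 without replicate 1 (22.9% of all genes), 2 without replicate 2 (9.86%) and 1 without replicate 3 (0.334%). The count of members with different responses was 3, and 5 with DESeq2, 6 with the replicate block, and 2 to 6 with single libraries left out, 5 without KPC4 Gem-PSC-SU replicate 1 and 6 without its replicate 2. The count of control level differences, 6, ran from 5 to 8, and no paired analysis was possible for it because replicate numbers are nested in lines. The cause of these moves was not tested. Estimates near 0 turned sign. With single libraries left out, Dusp7 in PSC4 ran from −0.32 to 0.0012 (positive without Control-SU replicate 1), Dusp10 in KPC4 from −0.16 to 0.16 (−0.072 and −0.033 without Gem-PSC-SU replicates 1 and 2) and the difference of Dusp7 between lines from −0.11 to 0.31 (−0.092 and −0.019 without PSC4 Gem-SU replicate 1 and KPC4 Control-PSC-SU replicate 2). Dusp10 in KPC4 was −1.69e-05 without a filter and −0.24 in the block without replicate 1, and Dusp7 in KPC4 0.046 in the block without replicate 2. Over all genes, the 6177 PSC4 calls were 4061 without Gem-SU replicate 2, the 0 KPC4 calls 822 with DESeq2, 1171 with the block 610 in the 12-library fit and 0 to 1129 with single libraries left out, and the 1343 calls of a different response 2145 with DESeq2, 2988 with the block and 610 to 1993 with single libraries left out. Another scaling moved the median of all genes by at most 0.015 on the log2 scale. At 0.66 CPM, depth limits Dusp2 to a lower bound.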
